A study of Mus musculus with 4 samples.

Results

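The Toll-like receptors, their co-receptors Cd14 and Ly96 and their adaptor Myd88 were followed in mouse brain after permanent middle cerebral artery occlusion (PMCAO), a model of stroke. The 9 genes are Cd14, Ly96, Tlr1, Tlr2, Tlr4, Tlr3, Tlr7, Tlr9 and Myd88, taken as every non-control probe whose gene name was one of these symbols or an older or newer form of it. They were read by 11 of the 41174 probes and make up 9 of the 27670 gene names on the array. All 9 passed the filter on dim signal, which left 19130 genes for testing, and the probe that stands for each was above background in PMCAO and sham RNA on all 4 arrays. So no member was kept only because it was bright in 1 group.

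Male C57BL/6J mice of 8 to 12 weeks were used, with 3 mice in each group. In the PMCAO groups a nylon filament was passed by the right common carotid artery into the middle cerebral artery and left there, while in the sham groups the neck was opened and the carotid exposed only. Every mouse, sham included, was also given intracerebroventricular saline, and 6 h or 24 h passed between this injection and dissection. PMCAO RNA and sham RNA of the same time were hybridised together in the 2 channels (Cy3 and Cy5) of 1 array, with 2 arrays per time, named sample 1 and sample 2, that carry opposite dyes. The labels do not say whether the paired arrays hold separate RNA or the same RNA with dyes exchanged, nor how the mice were combined, so what the p-values capture is array-to-array scatter, possibly technical only. By the series design the arrays held contralateral (left) hemispheres, whereas the labels of the samples give just brain. RNA of neurons, astrocytes and oligodendrocytes was present, with 9 of 9, 9 of 9 and 7 of 7 of their listed marker genes past the signal filter.

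Toll-like receptors bind molecules of microbes and of damaged tissue and start inflammatory gene expression. Cd14 hands lipopolysaccharide to the pair of Tlr4 and Ly96 at the cell surface, Tlr2 works there as a dimer with Tlr1 or Tlr6, and Tlr3, Tlr7 and Tlr9 read nucleic acids inside endosomes. Myd88 carries the signal of all of these receptors except Tlr3, which uses Ticam1. In the brain, microglia and the blood leukocytes that enter after injury are known as main carriers of these receptors.

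The probes are single 60-base oligonucleotides, and the values below are their signals. The Tlr2 probe lies at chr3:83941473-83941532 and the Tlr1 probe at chr5:64279687-64279746 on mm7, the build named in the scanner files, both on the minus strand. They are shown because these genes are close relatives whose probes are alike: placed without gaps at an offset of 13 bases, 29 of 47 bases are identical (61.7%), here in capitals.
Tlr2: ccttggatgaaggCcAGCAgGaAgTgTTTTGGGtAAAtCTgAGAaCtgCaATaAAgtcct
Tlr1: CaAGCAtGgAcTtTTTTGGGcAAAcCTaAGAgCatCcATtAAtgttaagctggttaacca
The longest stretch that these probes share without a mismatch is 7 bases, and no pair among the member probes and the probe of Tlr6 shares more than 8. Whether the Tlr1 probe also binds RNA of Tlr6, its close paralogue, was not tested.

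The Ly96 probe is shown because it crosses a splice junction: its 60 bases fall on 3273 bases of the genome, chr1:16895437-16898709 on the plus strand of mm7, so it reads spliced RNA.
Ly96: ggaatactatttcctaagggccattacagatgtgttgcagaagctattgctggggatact
The other probes that stand for a gene lie within a 60-base stretch of the genome on mm7, at chr4:66276388-66276447 (Tlr4), chr8:44182210-44182269 (Tlr3), chrX:162079619-162079678 (Tlr7), chr9:105956096-105956155 (Tlr9) and chr9:119016408-119016467 (Myd88). Their place in an exon or untranslated region was not determined here.

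RefSeq promoters (build GRCm38.p6, 250 bases before to 50 after the start of the gene) were given for 5 of the 9 members. They are shown for Tlr2 and Myd88, whose RNA was higher after PMCAO at 24 h, and for Tlr3, whose values lay near 0. Capitals mark matches to 5 motifs searched on both strands: the 10-base NF-κB consensus, AP-1 (TGANTCA), the core of the interferon-stimulated response element (GAAANNGAA), C/EBP (TTGCNNAA) and PU.1 (GAGGAAGT). The 250 bases before each start are printed, at chr3:83841609-83841858, chr9:119340019-119340268 and chr8:45410381-45410630, all on the minus strand.
Tlr2: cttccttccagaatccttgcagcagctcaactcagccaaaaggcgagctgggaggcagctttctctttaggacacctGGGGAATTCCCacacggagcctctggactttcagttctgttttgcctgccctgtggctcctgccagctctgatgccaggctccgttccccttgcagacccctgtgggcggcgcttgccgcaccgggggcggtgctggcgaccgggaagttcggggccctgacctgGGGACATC
Myd88: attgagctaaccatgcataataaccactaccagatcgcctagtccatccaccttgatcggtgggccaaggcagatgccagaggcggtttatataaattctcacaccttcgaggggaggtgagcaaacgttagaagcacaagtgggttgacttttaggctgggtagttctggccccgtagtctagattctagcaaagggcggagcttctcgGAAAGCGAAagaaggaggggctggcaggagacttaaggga
Tlr3: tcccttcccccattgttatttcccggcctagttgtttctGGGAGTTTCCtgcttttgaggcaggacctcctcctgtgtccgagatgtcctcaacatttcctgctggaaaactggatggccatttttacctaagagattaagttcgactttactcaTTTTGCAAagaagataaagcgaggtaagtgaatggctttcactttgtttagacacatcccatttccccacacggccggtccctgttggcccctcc
The NF-κB consensus was found at 173 and 172 bases before the Tlr2 start, as overlapping matches on both strands, again at 8 bases before it with its end past the start, and at 211 bases before the Tlr3 start. It was found in 4.51% of all 32851 RefSeq promoter windows of this length. Myd88 held the interferon-response core at 40 bases before its start, as did 8.56% of all windows. Tlr3 also held a C/EBP match at 95 bases before its start (10.8% of windows), Tlr1 a PU.1 match at 23 bases before 1 of its 2 listed starts (3.2%), and Tlr9 an AP-1 match at 58 bases before its start (7.81%) and a PU.1 match after it. These matches are letters in a window and were not tested as binding sites. Whether they bear on the RNA values was not tested either.

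After PMCAO, Cd14, the surface receptors Tlr1, Tlr2 and Tlr4 and the adaptor Myd88 were higher at 24 h, and of the endosomal receptors Tlr7 was too, while Tlr3, Tlr9 and the co-receptor Ly96 did not pass the test. At 6 h, 2 of the 9 members were higher in PMCAO than in sham and 0 lower, against 0.815% and 0.0366% of the 19130 genes tested (limma's moderated test, Benjamini-Hochberg adjusted p under 0.05). These were Cd14 and Tlr2. At 24 h, 6 of 9 were higher and 0 lower, against 7.86% and 4.53% of genes: Cd14, Tlr1, Tlr2, Tlr4, Tlr7 and Myd88. Without any adjustment, 4 members were higher at a p under 0.05 at 6 h and 7 at 24 h, and 0 were lower at either time. The median log2 ratio of PMCAO over sham over the 9 members was 0.01 at 6 h and 0.73 at 24 h, beside -0.01 and 0.00 over all genes tested. The members were chosen with earlier results of these data known, so their larger shares may follow in part from that choice.

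**Figure D1:**
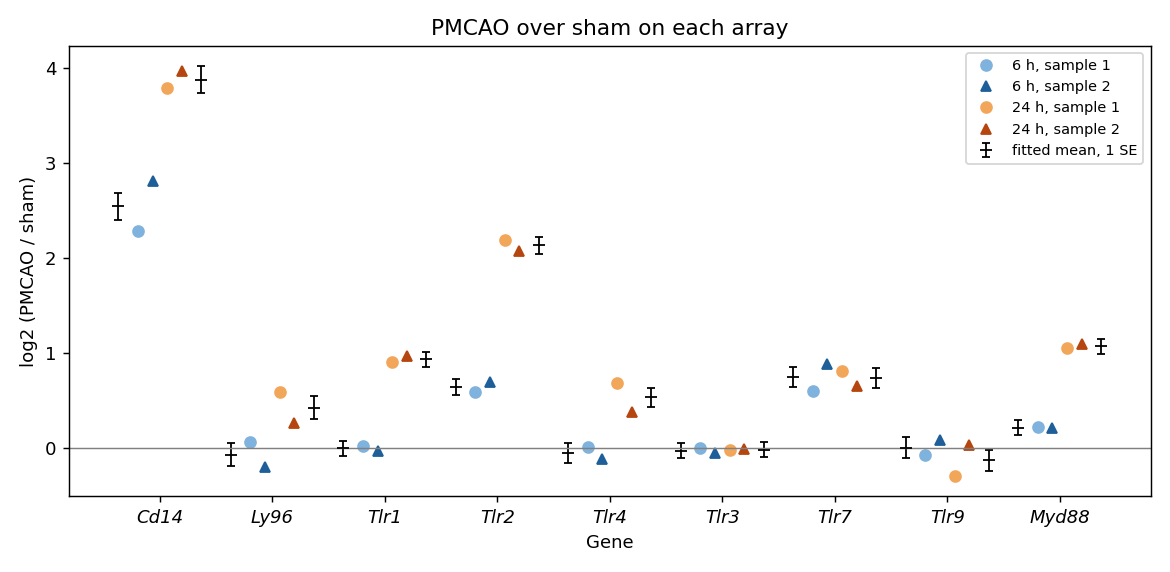
The log2 ratio of PMCAO over sham (vertical axis, a value of 1 is a doubling) for the 9 genes on each of the 4 arrays, with circles for sample 1 and triangles for sample 2, and the fitted mean with 1 standard error in black. Cd14 lay between 2.29 and 3.96 on all arrays, Tlr3 between -0.06 and 0.00, and Tlr7 overlapped between the times.

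Cd14, the protein that passes lipopolysaccharide and other ligands to the receptors, had the largest ratios of the members. Its log2 level, the normalised intensity of 1 channel, was 8.96 and 8.50 in sham at 6 h, 8.70 and 8.56 in sham at 24 h, 11.24 and 11.31 in PMCAO at 6 h, and 12.49 and 12.53 in PMCAO at 24 h (samples 1 and 2). All PMCAO channels were above all sham channels, and the 24 h PMCAO channels above those of 6 h. The log2 ratio of PMCAO over sham was 2.29 and 2.81 on the 6 h arrays and 3.79 and 3.96 on the 24 h arrays. This gave 5.84-fold at 6 h (log2 2.55 ± 0.14, SE, n = 2 arrays, limma adjusted p = 0.00491) and 14.7-fold at 24 h (3.88 ± 0.14, adjusted p = 0.000197).

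Ly96 (MD-2) is the partner that holds lipopolysaccharide on Tlr4. Its log2 ratio was 0.06 and -0.20 at 6 h and 0.59 and 0.27 at 24 h. The times did not overlap, but neither passed the test, with 1.34-fold at 24 h (0.43 ± 0.12, SE, limma adjusted p = 0.0781; 95% interval of the log2 ratio 0.13 to 0.72 before adjustment) and a 6 h value of -0.07 ± 0.12 with an interval of -0.36 to 0.23.

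Among the surface receptors, Tlr2, the receptor of lipoproteins, was higher at both times. Its log2 level in sham was 8.31, 8.19, 8.23 and 8.14 over the 4 arrays, in PMCAO at 6 h 8.90 and 8.89, and in PMCAO at 24 h 10.41 and 10.22. The 3 sets did not overlap, and the sham channels of both times lay together. The ratio was 0.59 and 0.70 at 6 h and 2.19 and 2.08 at 24 h, which is 1.56-fold at 6 h (0.64 ± 0.09, SE, limma adjusted p = 0.0491) and 4.38-fold at 24 h (2.13 ± 0.09, adjusted p = 0.000222). The 6 h call sat at the threshold: without sample 1 of 6 h the value was 0.70 with an adjusted p of 0.329, without sample 2 it was 0.59 with 0.886, and it was also lost with the offset of 16 (adjusted p = 0.0600), with a filter on all 8 channels (0.0528) and with median centring (1.00).

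Tlr1, which pairs with Tlr2 for triacylated lipoproteins, had log2 ratios of 0.03 and -0.03 on the 6 h arrays, and of 0.90 and 0.96 on those of 24 h. Its log2 level was 6.93, 7.03, 7.08 and 6.99 in the sham channels, 6.96 and 7.00 in PMCAO at 6 h, and 7.99 and 7.96 in PMCAO at 24 h, so only the last set stood apart. The ratio was 1.91-fold at 24 h (0.93 ± 0.08, SE, limma adjusted p = 0.00254), and at 6 h it was -0.00 ± 0.08 with a 95% interval of -0.21 to 0.20. Over 7 other processing settings the 24 h value ran from 0.92 to 1.57, so its size depended on the processing. The 95% interval of the main fit at 24 h, 0.73 to 1.14, does not cover this range. Tlr6, the other partner of Tlr2 and no member here, had ratios of 0.08 and 0.19 on the 6 h arrays, and of 0.86 and 0.69 on those of 24 h (0.78 ± 0.09, adjusted p = 0.00627 at 24 h).

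Tlr4, the lipopolysaccharide receptor, had log2 ratios of 0.01 and -0.12 on the 6 h arrays, and of 0.68 and 0.38 on those of 24 h. The arrays of one time lay on one side of those of the other, and the 24 h pair was spread widely. At 24 h it was 1.45-fold higher (0.53 ± 0.11, SE, limma adjusted p = 0.0319), and at 6 h it was -0.05 ± 0.11. A second probe that carries the symbol Tlr4, for the transcript AK014533 at chr4:66363220-66363279, was not well above background in either channel of any array, and its ratios of -0.03, -0.12, -0.05 and -0.04 say nothing of Tlr4.

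The endosomal receptors differed among themselves. Tlr7, the receptor of single-stranded RNA, had log2 ratios of 0.60 and 0.89 on the 6 h arrays, and of 0.82 and 0.65 on those of 24 h, so the times overlapped. The values were 1.67-fold at 6 h (0.74 ± 0.11, SE, limma adjusted p = 0.0589) and 1.66-fold at 24 h (0.73 ± 0.11, adjusted p = 0.0129): the sizes were alike, and only the second passed. At 6 h it passed in 2 of 7 other processing settings, with an adjusted p of 0.0365 for the ratio of the scanner software and 0.0374 for the deposited table. These 2 settings rest on the same processed signals and are not independent of each other. Tlr7 at 6 h did not pass in the other 5, median centring among them. With the 6 h arrays fitted alone the adjusted p was 8.49e-09, in a fit of 2 arrays that takes its spread largely from other genes.

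Tlr3, the receptor of double-stranded RNA, had log2 ratios of 0.00 and -0.06 on the 6 h arrays, and of -0.02 and -0.01 on those of 24 h. All 4 arrays lay within 0.06 of 0. Its 95% interval was -0.23 to 0.17 at 6 h and -0.22 to 0.18 at 24 h, which is 0.86 to 1.13-fold. A second Tlr3 probe gave 0.04, -0.05, -0.07 and -0.06.

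Tlr9, the receptor of unmethylated DNA, had log2 ratios of -0.07 and 0.08 on the 6 h arrays, and of -0.29 and 0.04 on those of 24 h. The sign differed between the arrays of each time, and the 95% intervals were -0.27 to 0.28 at 6 h and -0.40 to 0.15 at 24 h. Tlr3 and Tlr9 therefore did not pass at either time, and their intervals exclude a doubling.

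Myd88, the adaptor, had log2 ratios of 0.22 and 0.21 on the 6 h arrays, and of 1.05 and 1.09 on those of 24 h. Its log2 level was 9.42 and 9.42 in sham at 6 h, 9.58 and 9.56 in sham at 24 h, 9.64 and 9.63 in PMCAO at 6 h, and 10.63 and 10.65 in PMCAO at 24 h. The 24 h PMCAO channels stood well above the rest. It was 2.10-fold higher at 24 h (1.07 ± 0.08, SE, limma adjusted p = 0.00141), and the 6 h value of 0.22 ± 0.08, though the same on both arrays, did not pass (adjusted p = 0.514).

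All calls of the members for PMCAO over sham, except that of Cd14 at 24 h, were lost without loess normalisation. With each array centred on its median instead, the members kept values close to those above (Tlr2 2.05 and Myd88 0.95 at 24 h), but 0 of 9 passed at 6 h and 1 of 9, Cd14, at 24 h, with 14 of all genes higher at 24 h.

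The probes of Tlr2, Tlr4 and Myd88 were printed 10 times on each array, which shows the error within an array. The standard deviation between spots of the log2 ratio was 0.02 to 0.05 for Myd88, 0.02 to 0.08 for Tlr2 and 0.04 to 0.08 for Tlr4, after the scanner software's outlier spots were removed (at most 3 of 10 on an array). For Myd88 the spots of the arrays of one time overlapped. For Tlr4 at 24 h they did not: sample 1 ran from 0.56 to 0.84 and sample 2 from 0.28 to 0.44, so the difference between these arrays was larger than the error within them. The Tlr2 spots ran from 0.52 to 0.67 and from 0.54 to 0.81 at 6 h, overlapping, and from 2.11 to 2.30 and 2.04 to 2.10 at 24 h, where they did not overlap. Spots of 1 array share its RNA and are not replicates of a condition. The paired arrays differ in dye as well as in sample, and the part of each in the Tlr4 spread cannot be told apart.

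**Figure D2:**
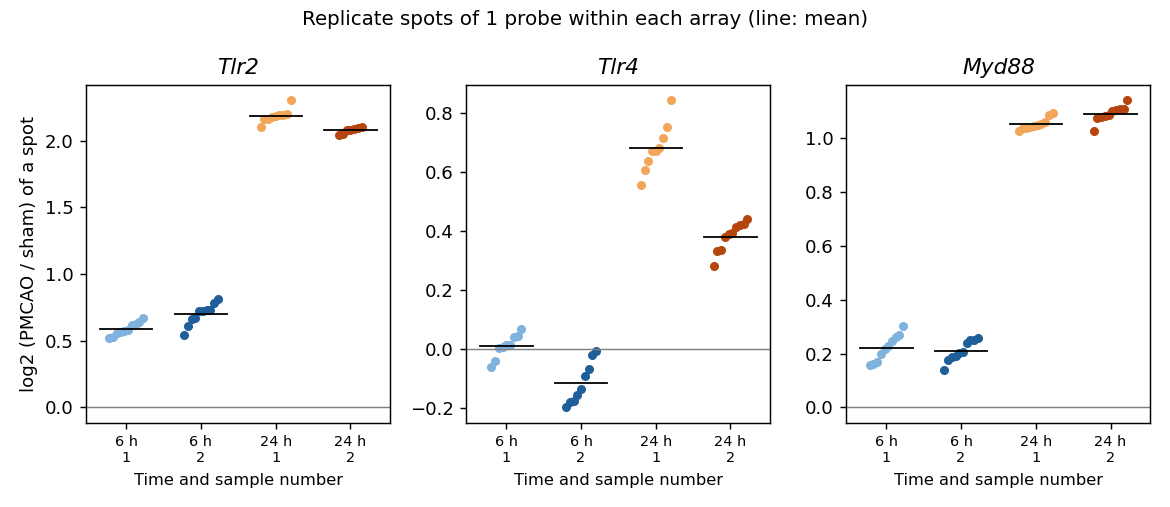
The log2 ratio of PMCAO over sham of each replicate spot (points) of the Tlr2, Tlr4 and Myd88 probes on the 4 arrays, with the mean of each array as a line; the vertical scales differ between panels. The Tlr4 spots of the 24 h arrays separate, from 0.56 to 0.84 against 0.28 to 0.44, whereas all Myd88 spots of 24 h lie between 1.03 and 1.14.

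The change between the times was tested directly, as the 24 h ratio minus the 6 h ratio, over separate sham groups. It was higher at 24 h for 4 of 9 members and lower for 0, against 1.3% and 0.303% of all genes. The difference in log2 ratio was 1.49 ± 0.12 (SE) for Tlr2 (limma adjusted p = 0.0121), 1.33 ± 0.20 for Cd14 (0.0486), 0.94 ± 0.11 for Tlr1 (0.0291) and 0.86 ± 0.11 for Myd88 (0.0355). Tlr4 (0.59 ± 0.15, adjusted p = 0.152) and Ly96 (0.50 ± 0.17, adjusted p = 0.261) did not pass, while Tlr7 was at -0.01 ± 0.15 with a 95% interval of -0.38 to 0.36. The Tlr7 values were thus alike at both times, though that of 6 h did not pass, whereas the ratios of Tlr1 and Myd88 passed at 24 h and differed between the times. These calls depended on single arrays and on the processing: without sample 1 of 6 h the adjusted p was 0.0672 for Cd14 (value 1.07), 0.115 for Tlr1 (0.97) and 0.191 for Myd88 (0.86), without sample 2 of 6 h it was 0.147 for Tlr1 (0.91) and 0.19 for Myd88 (0.85), and with the ratio of the scanner software only Tlr1 passed among the members. The Cd14 difference was also lost with the offset of 16 (adjusted p = 0.0545) and with a filter on all 8 channels (0.0603). Over 7 other processing settings the Tlr1 difference ran from 0.92 to 1.76.

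The 2 channels were also fitted separately, to see whether sham or PMCAO RNA moved between the times. In sham RNA, 0 of 9 members were higher and 0 lower at 24 h than at 6 h, against 1.89% and 1.59% of all genes (limma's separate-channel fit; at an unadjusted p under 0.05, 1 member was higher and 1 lower). Their differences in log2 level ran from -0.22 for Tlr4 to 0.18 for Tlr9, with adjusted p from 0.226 to 0.924. In PMCAO RNA, 6 of 9 were higher at 24 h and 0 lower, against 11.1% and 9.15% of genes: Tlr2 by 1.42, Cd14 by 1.23, Myd88 by 1.01, Tlr1 by 0.99, Ly96 by 0.42 (adjusted p = 0.0165) and Tlr4 by 0.37 (adjusted p = 0.0248). For Ly96 and Tlr4 this call did not hold without sample 1 of 6 h (0.50, adjusted p = 0.0723, and 0.38, 0.16), sample 2 of 6 h (0.34, 0.186, and 0.35, 0.18) or sample 1 of 24 h (0.31, 0.0575, and 0.25, 0.084). Tlr7 differed by -0.22 in PMCAO RNA (adjusted p = 0.14) and by -0.27 with quantile normalisation of all channels (adjusted p = 0.0481), and by -0.21 in sham RNA (adjusted p = 0.249).

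**Figure D3:**
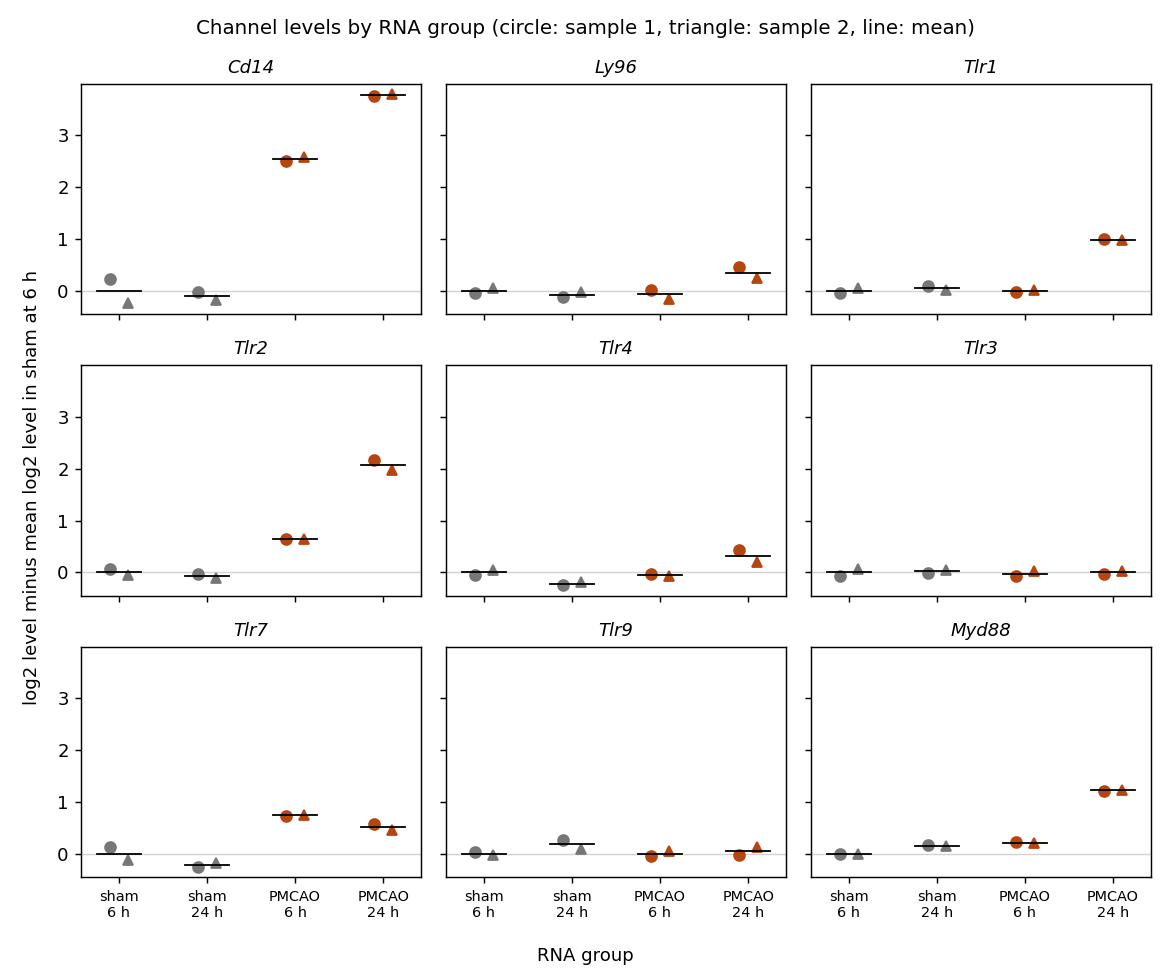
The log2 level of each gene in the 2 channels of each group, minus the gene's own mean in sham at 6 h (vertical axis), for sham (grey) and PMCAO (orange) at 6 h and 24 h, with circles for sample 1, triangles for sample 2 and a line at the mean. Tlr1 and Myd88 stand out in PMCAO at 24 h, and Tlr7 is above sham at both times.

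Genes of the pathway outside the members were described by role, and 0 genes of any of the 10 lists were lower past the test at either time. The counts below stand beside 7.86% of all genes tested higher at 24 h and 0.815% at 6 h, and a list whose share is near these is no result about the list. The lists were chosen with earlier results of these data known, so a larger share may follow in part from that choice. A gene that was above background on both arrays of a time in PMCAO RNA only was in effect chosen for being high there, so such genes are left out of the counts and medians of the lists that hold any. Genes that passed in this way in sham RNA only were kept, though in effect chosen for being low in PMCAO RNA. In these lists they were Cd180 and the inhibitor Il1rl1. Among ligands and their carriers, 5 of 11 endogenous ligands were higher at 24 h and 3 at 6 h, with a list median of 0.43 and 0.12. S100a9 and S100a8, the calprotectin subunits that bind Tlr4, had log2 ratios of 5.91 and 5.76, and 5.27 and 5.28, on the 24 h arrays (fitted 5.84 ± 0.10 and 5.27 ± 0.10, SE, limma adjusted p = 8.44e-05 for both). They are also neutrophil markers. Hspa1a, a heat shock protein whose RNA is nearly identical to that of Hspa1b and may include it, was at 3.85 at 6 h and 3.39 at 24 h. Lgals3 and Tnc also were higher at 24 h (2.83 and 0.52; these were named after their values were seen), and Hmgb1, the nuclear protein known as a signal of damaged cells, was at 0.17 (adjusted p = 0.3). In the list of ligand transfer and receptor trafficking, 2 of 11 were higher at 24 h and 0 at 6 h, beside 7.86% and 0.815% of all genes (median 0.13 at 24 h): the protease Ctsl, which trims endosomal receptors, at 0.90 and the lipopolysaccharide-binding protein Lbp at 0.70. Unc93b1, which carries the endosomal receptors to their place, was at 0.06 (adjusted p = 0.706). Of the 8 other Toll-like receptors and relatives, 3 were tested, and Tlr6 was higher at 24 h, with 0 at 6 h. The median of the 3 at 24 h was -0.11, from Tlr6 (0.78), Ly86 (-0.11) and Cd180 (-0.15). Cd180 was above background in PMCAO RNA on 0 arrays, so the sign of this median rests on a gene kept for its sham signal. Tlr5 and Tlr8 did not pass the signal filter, and Tlr11, Tlr12 and Tlr13 had no probe under their symbols.

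Genes that act downstream of the receptors were described in the same way. Of the 4 other adaptors tested, 2 were higher at 24 h and 0 at 6 h (median 0.42 at 24 h): Tirap, which brings Myd88 to surface receptors, at 0.59 (limma adjusted p = 0.0186) and Ticam1, the adaptor of Tlr3, at 0.53 (adjusted p = 0.033). Of 19 kinases and ubiquitin ligases, 4 were higher at 24 h and 0 at 6 h, beside 7.86% and 0.815% of all genes (median 0.06 at 24 h), among them Ripk1 at 0.72, Map3k8 at 0.66 and Irak2 at 0.59. The Ripk1 value is that of its brightest probe, and its other probes had log2 ratios of 0.43 and 0.19 at 24 h. The kinases Irak1 (0.18) and Irak4 (0.26) and the ligase Traf6 (0.06) did not pass. Of 11 transcription factors, 7 were higher at 24 h and 2 at 6 h (median 0.66 at 24 h), led by Cebpd (2.90), Cebpb (1.74) and Nfkb2 (1.13). Cebpd had 1.28 and 1.27 on the 6 h arrays and 3.05 and 2.76 at 24 h.

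Of the 17 inhibitors of the pathway that passed the filter in sham RNA, 8 were higher at 24 h and 4 at 6 h, with medians of 0.37 and 0.11. Another 2 inhibitors, Il1rn and Zc3h12a, passed it in PMCAO RNA only. The inhibitors were led at 24 h by Atf3, a repressor of cytokine genes (3.21 ± 0.13, SE), Socs3 (2.29 ± 0.09), which blocks cytokine receptors, and Il1rn (2.10 ± 0.09), the antagonist of the interleukin 1 receptor. Atf3 (2.66), Socs3 (1.60) and the NF-κB inhibitor Nfkbia (0.89) were higher at 6 h already. Il1rn was not well above background in sham at 24 h, so its ratio there is a bound of at least 4.07-fold, and at 6 h it was not above background in either RNA. Of the 14 inducible targets that passed the filter in sham RNA, 13 were higher at 24 h and 7 at 6 h, with medians of 2.92 and 0.75. Another 6 targets (Il6, Cxcl2, Csf3, Il1a, Tnf and Acod1) passed it in PMCAO RNA only. The chemokines Ccl4 (4.46 ± 0.25), Cxcl1 (4.26 ± 0.17) and Ccl2 (4.18 ± 0.15) led at 24 h, and Ccl4 (2.50), Ccl2 (2.49) and Ccl3 (1.96) at 6 h. Cxcl1 was above background in sham on 1 of 2 arrays at 24 h. The target that did not pass at 24 h was Cd40 (0.21, adjusted p = 0.147). A further 4 listed targets (Cxcl9, Nos2, Ifnb1 and Il12b) did not pass the signal filter.

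Other sensors and other users of Myd88 gave a comparison. Of 3 tested receptors that also use Myd88, Il1r1 was higher at 24 h (1.00 ± 0.11, SE, limma adjusted p = 0.00494; list median 0.27), with 0 at 6 h. Of the 15 other pattern sensors that passed the filter in sham RNA, 8 were higher at 24 h and 0 at 6 h (medians 0.47 and -0.02). Clec4d and Fpr2 passed it in PMCAO RNA only. The sensors were led by the C-type lectins Clec4d (3.58 ± 0.14) and Clec4e (2.20 ± 0.15), receptors found on leukocytes, of which Clec4d was above background in sham on 1 of 2 arrays at 24 h, and the scavenger receptor Msr1 (2.18 ± 0.12, with its other probes at 1.41 and 2.10). The sensor Nlrp3 was at 0.00 (adjusted p = 0.985).

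**Figure D4:**
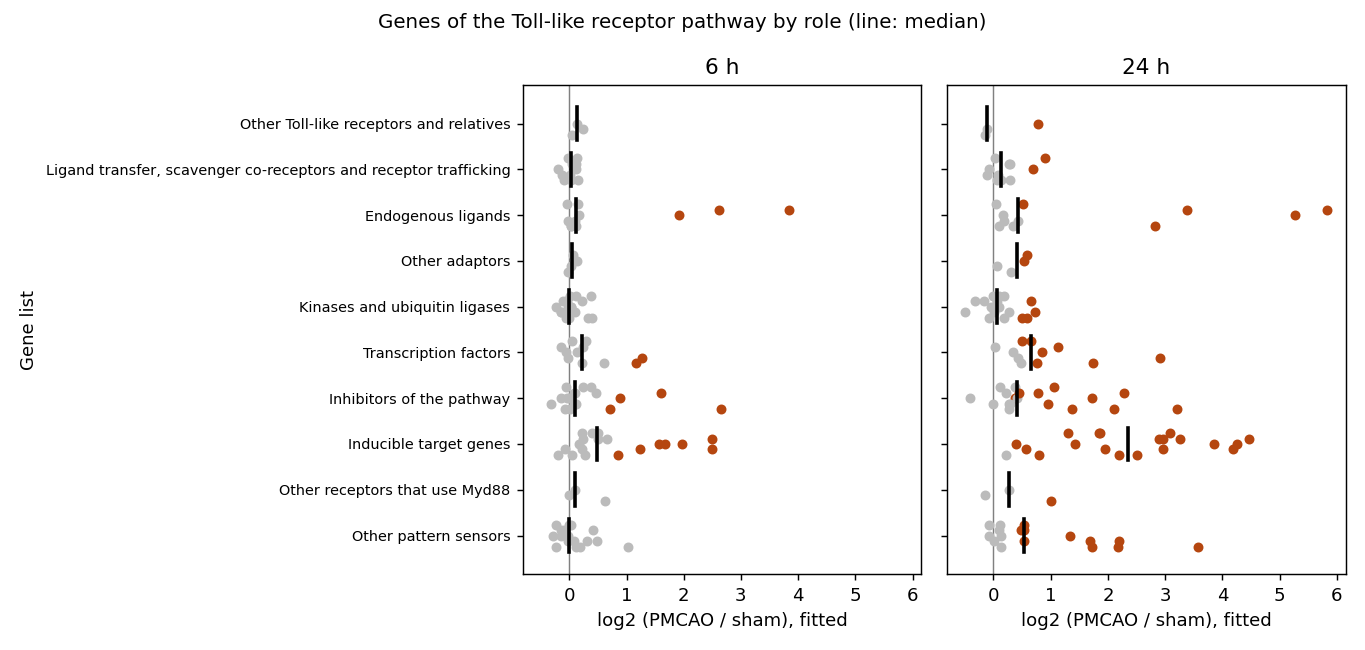
Fitted log2 ratios of PMCAO over sham (horizontal axis) at 6 h and 24 h for the genes of 10 lists, with each point a gene, orange where higher past the test and grey where not past it, and a black line at the median of all tested genes of the list, those that passed the filter in PMCAO RNA only included. The kinases and ubiquitin ligases lie around a median of 0.06 at 24 h, and of the inducible targets Cd40 (0.21) is the gene not past the test there.

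The lists of cell type markers went in different directions. At 24 h, 5 of the 8 neutrophil markers that passed the filter in sham RNA were higher (median 1.76), 5 of 8 of monocytes and macrophages (median 0.63) and 7 of 10 shared by all myeloid cells (median 0.77, and 0.84 and 0.65), with 0 lower in each. At 6 h, 3 neutrophil markers were higher (S100a8, S100a9 and Retnlg; median 0.45) and 0 of the monocyte and macrophage and the shared lists. Another 3 neutrophil markers (Mmp8, Cxcr2 and Ngp) and 2 of monocytes and macrophages (Arg1 and F10) passed the filter in PMCAO RNA only. Of the 8 neutrophil markers counted, 1 passed it in sham RNA only. The neutrophil genes Camp and Elane did not pass the signal filter and Ly6g had no probe under its symbol. Microglia markers went the other way at 24 h, with 5 of 10 lower and 0 higher (median -0.35): P2ry12 by -1.72, Gpr34 by -1.37, Siglech by -1.01, Olfml3 by -0.59 and Tmem119 by -0.41. A second, dimmer Olfml3 probe was at -0.03.

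In bulk RNA, more or fewer cells of a type and more or less RNA per cell cannot be told apart, and the part of these cells in the values of Cd14, the receptors and Myd88 was not tested. Lymphocyte markers (0 of 4 past the test at 24 h), neuronal markers (0 of 9) and oligodendrocyte markers (0 of 7) did not pass. The lymphocyte list held 10 genes, of which only these 4 were tested, and 2 of the 4 passed the filter in sham RNA only. It therefore says little about lymphocytes. Of the astrocyte markers 4 of 9 were higher at 24 h, Gfap most (1.25), and of the endothelial markers 2 of 8 were higher and 1 lower. The red cell gene Hba-a1 was higher at 24 h (0.52, limma adjusted p = 0.0186), and at 6 h it was at 0.49 (adjusted p = 0.0972).

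**Figure D5:**
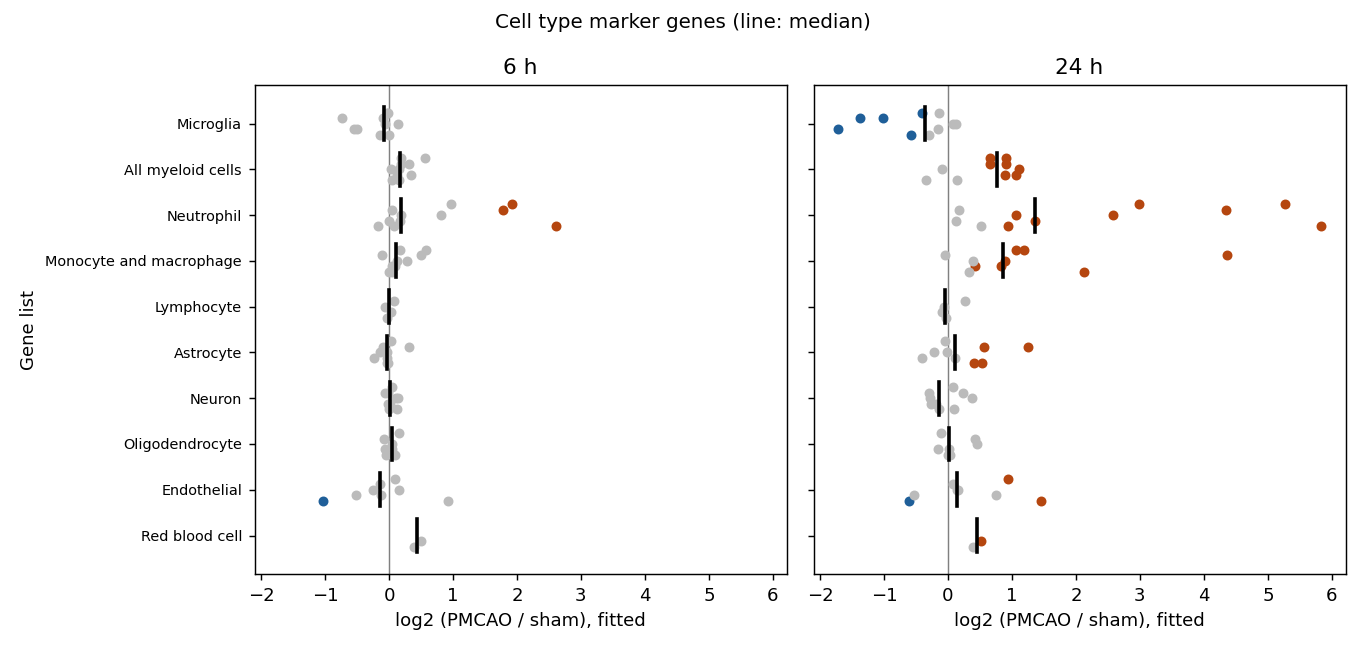
Fitted log2 ratios of PMCAO over sham (horizontal axis) at 6 h and 24 h for marker genes of 10 cell types, with each point a gene, orange where higher and blue where lower past the test, grey otherwise, and a black line at the median of all tested genes of the list. Microglia markers lie around a median of -0.35 at 24 h, with 5 of 10 lower.

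The genes whose log2 ratios over the 4 arrays lay nearest to 3 of the members, by Euclidean distance among the 19130 genes tested, were also recorded. Nearest to Cd14 were Tubb6 (a tubulin, distance 0.62), the chemokine Ccl2 (0.63) and Ctla2a (0.86). Another Tubb6 probe had log2 ratios of 0.05 at 6 h and -0.07 at 24 h, against 2.35 and 3.60 for the brighter one used. Nearest to Tlr2 were Esm1 (0.21), Aspg (0.25) and Bcl2a1b (0.30), the last a member of a family of near-identical copies whose signals may mix. Another Aspg probe was at 0.19 and 0.94, against 0.81 and 2.08. Nearest to Myd88 were Apol6 (0.09), Ddc (0.11) and the lymphotoxin receptor Ltbr (0.14), with Ltbr at 0.23 and 0.30 at 6 h and 0.98 and 1.03 at 24 h. The points share the 4 arrays, and no test was made.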

How the data were processed

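Per the submitters' processing notes, the 2-colour scans were read by the software Agilent Feature Extraction, version 9.5.3.1. The deposited scanner files give spot intensity, a log10 ratio and flags; the deposited series table, a score here, held the processed red over green ratio in size for 100% of spots (within rounding to 2 decimals), with a minus sign on every value of 2 arrays (column medians -0.96, 0.96, -0.91 and 0.95). The authors' centring of it is not given in the sources used here.

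Mean intensity was background-corrected (normexp, offset 50) and loess-normalised within each array in limma 3.58.1 (R 4.3.3). Outlier spots (112 to 142 per array) were removed, ratios turned to PMCAO over sham, spots averaged, and the brightest probe past the filter stood for a gene. The filter asked for signal well above background on both arrays in at least 1 RNA group. All 4 arrays were fitted together (lmFit, eBayes, 2 residual and 3.54 prior degrees of freedom), with Benjamini-Hochberg adjustment over 19130 genes. A separate-channel fit (Aquantile, intraspot correlation -0.41) gave levels over time. The method was run on simulated data with added changes of known size. Noise there was drawn separately for each array, so that run cannot tell whether the paired arrays hold separate RNA. All arrays were on 1 slide. The arrays of a time correlated at 0.58 (6 h) and 0.67 (24 h) over genes, and 66.3 to 73.7% of spots were above background in PMCAO channels. The number of arrays limits the precision.

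Probes were named by accession (22951), symbol (6659) or older symbol (3109) through RefSeq, and 8455 kept the file's name. The members and lists were chosen with earlier results of these data known. All members were named; in each list, the 3 highest and 2 lowest ratios past the test at each time with both arrays of one sign; and the 3 genes nearest to Cd14, Tlr2 and Myd88. Other genes were chosen after their values were seen.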

Additional observations from a re-analysis of the deposited data

Results flagged for a closer look

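For 24 genes with values given above, the ratio of PMCAO over sham differed between 24 h and 6 h by a direct test of the difference (limma, Benjamini-Hochberg adjusted p under 0.05). Over all genes tested, 1.3% were higher and 0.303% lower by the same test. The ratio was larger at 24 h on the log2 scale for all of the 24 genes but Siglech. Among the members these were Tlr2 by 1.49, Cd14 by 1.33, Tlr1 by 0.94 and Myd88 by 0.86. Among endogenous ligands they were S100a8 by 3.35, S100a9 by 3.22 and Lgals3 by 2.71. Part of these differences lay in sham RNA, where the mean log2 level fell from 6 h to 24 h. It went from 8.25 to 7.10 for S100a8, 10.77 to 10.03 for S100a9 and 8.95 to 8.06 for Lgals3. In PMCAO RNA it rose from 10.17 to 12.37, 13.38 to 15.86 and 9.07 to 10.89. The transcription factor Cebpd differed by 1.63 (sham level 12.60 at 6 h and 11.88 at 24 h) and the inhibitor Il1rn by 2.08. Among the targets, Cxcl1 differed by 2.69, Ccl3 by 1.90 and Ccl2 by 1.69. The sham level of Ccl2 went the other way, from 7.87 at 6 h to 8.87 at 24 h. Among the other sensors, Clec4d differed by 2.55, Msr1 by 2.00 and Clec4e by 1.72. At 6 h Il1rn was not well above background in either RNA, nor Msr1 and Clec4e in sham RNA, so these values rest on dim signal. At 24 h Il1rn was not above background in sham either. Il1rn and Clec4d passed the filter in PMCAO RNA only, so they were in effect chosen for being high there. Among the markers, the neutrophil gene Retnlg differed by 2.58 and the microglia gene Siglech by -0.92. The genes nearest to a member were chosen for a like pattern over the 4 arrays, and their differences follow from that choice: Ctla2a by 1.86, Esm1 by 1.56, Bcl2a1b by 1.28, Aspg by 1.27, Tubb6 by 1.25, Apol6 by 0.82 and Ddc by 0.80. The list genes and markers were named for their ratios at 6 h or 24 h, or after their values were seen, which favours a difference. How many of them passed is therefore no result about the lists. Groups of 2 arrays are too small for a check of single arrays that stand apart.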

How the results depend on the processing

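With the ratio of the scanner software, 22 genes were lower at 6 h, and the 24 h minus 6 h difference was past the test for 54 genes higher, 8 lower and 1 member; with the deposited series table these were 22, 51, 7 and 1. With median centring in place of loess, 0 genes were higher and 0 lower at 6 h, 14 and 0 at 24 h, and 0 and 0 for the difference (limma; at an unadjusted p under 0.05, 64 and 1, 283 and 18, and 61 and 4), with 0, 1 and 0 members higher. With signal required in all 8 channels, 1 member was higher at 6 h and the difference counted 149 genes higher and 30 lower. With the normexp offset of 16, 1 member was higher and 3 genes lower at 6 h. With the 6 h arrays alone, 940 genes were higher and 354 lower at 6 h. With quantile normalisation, 1 member, Tlr7, was lower in PMCAO RNA at 24 h than at 6 h. The cause of these shifts was not tested. In the settings that keep all 4 arrays, other than median centring and the replicate block, 6 members were higher at 24 h.

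With the sample number as a replicate block, which is also the dye, 1130 genes were higher and 569 lower at 6 h, 3912 and 3684 at 24 h, and 1686 and 1529 for the difference, with 3, 7 and 6 members higher. The members added to the calls were Tlr7 at 6 h (adjusted p = 0.000420), Ly96 at 24 h (0.000717), and Ly96 (0.00570) and Tlr4 (0.00286) for the difference. The labels do not show that the numbers pair the samples, with 2 per time. Over genes, the deviations of the arrays of the same number from the mean of their time correlated at 0.72. These arrays also share the dye orientation, so sample and dye cannot be told apart. The main fit leaves this shared part in its scatter.

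Leaving out each array in turn, which assumes that the lone array varies like the others, gave 76 to 940 genes higher and 0 to 354 lower at 6 h (members 1 to 3), 1246 to 2920 and 618 to 2839 at 24 h (members 6 to 7), and 169 to 1565 and 15 to 1350 for the difference (members 1 to 6). For sham RNA over time the range was 32 to 761 higher and 68 to 692 lower, and for PMCAO RNA 697 to 2232 and 357 to 1891 (members 4 to 6).

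Values near 0 changed sign. At 6 h Tlr9 was at -0.035 with the scanner ratio and -0.031 with the series table, and Tlr1 at 0.0013 with median centring. The Tlr3 difference was at -0.025 with the mean of its probes, and with quantile normalisation the sham change over time was at 0.020 for Cd14 and 0.048 for Tlr2. Without 1 array the 6 h ratio ran from -0.20 to 0.061 (Ly96), -0.032 to 0.026 (Tlr1), -0.12 to 0.0097 (Tlr4), -0.055 to 0.0024 (Tlr3) and -0.073 to 0.084 (Tlr9), and Tlr9 at 24 h from -0.29 to 0.036. The difference ran from -0.020 to 0.038 (Tlr3), -0.15 to 0.13 (Tlr7) and -0.30 to 0.031 (Tlr9). Over time, sham RNA ran from -0.32 to 0.13 (Cd14) and -0.055 to 0.094 (Tlr3), and PMCAO RNA from -0.017 to 0.074 (Tlr3) and -0.023 to 0.12 (Tlr9). No slide block could be fitted, since all arrays were on 1 slide; signal over background limits what the dim probes can show.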
